A study of Mus musculus with 8 samples.

Results

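The effect of endotoxin on Gr1+ cells of the mouse spleen was read from 5 of the 8 arrays of the series, 3 from mice given lipopolysaccharide (LPS, the endotoxin of the outer membrane of Gram-negative bacteria) and 2 from mice given PBS. Members were chosen by the sample titles and not by measured values, and all genes above background were compared, 10169 of the 16593 genes on the array. All mice were female C57BL/6 animals of 6 to 8 weeks. Mice of the LPS group received LPS into the peritoneum and PBS 30 min later, and mice of the PBS group received PBS at both times. Spleens were taken at 48 h, Gr1+ cells were isolated with magnetic beads, and over 95% of them were CD11b+ by the labels. Each array held cells pooled from many spleens, 10 to 15 by the extraction text and 30 to 40 by the design text, so the values are averages over mice. The other 3 arrays, from mice given LPS and then HY209 (sodium taurodeoxycholate, a bile salt), entered the fit to estimate the spread between arrays and are not described.

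Gr1 is an antibody epitope shared by Ly6G, carried by neutrophils, and Ly6C, carried by many monocytes. LPS is sensed by the receptor TLR4, which switches on NF-kB, AP-1 and interferon regulatory factors within hours. At later times, newly made granulocytes and monocytes leave the marrow and collect in the spleen, while the spleen also keeps its own macrophages, lymphocytes, red cell precursors and vessels. The best known inflammatory transcripts (chemokines, acute phase proteins and interferon-induced genes) are not the subject here, in favour of other groups of genes. Some interferon-inducible and acute phase genes still appear below as members of those groups.

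Illumina MouseRef-8 v2 arrays were used, and intensities ran from 108.9 to 66399 with a median of 169.7. On each array 12950 of 25697 probes (50.4%) lay above a background threshold of 169. Intensities are printed as deposited. Log2 changes (LPS minus PBS), folds and bounds come from the background-corrected log2 scale, and therefore differ from ratios of the printed intensities. A ± after a log2 change is its standard error in limma's fit, and n is 2 for PBS and 3 for LPS throughout. Rose and fell are used only of genes with an adjusted p under 0.05 (limma, Benjamini-Hochberg over 10169 genes). These p-values measure the spread between arrays, and 2 and 3 arrays per group limit the precision of every value.

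The sorted fraction was first set against markers of the cells it could hold. Summed over 15 neutrophil markers, intensity was 323527.0 to 327649.0 on the PBS arrays and 380178.0 to 391602.0 on the LPS arrays, with 9 members higher and 2 (Camp and Csf3r) lower. Very bright probes such as those of Ltf, S100a8 and Lcn2 carry much of this sum. They lie near the top of the scale, where a change can be compressed. Camp and Csf3r lost their calls without LPS 1 (limma adjusted p = 0.083 and 0.073) and with an offset of 16 (0.052 and 0.069), among other alternatives. Itgam, which encodes CD11b, stood at 506 and 565 on the PBS arrays and 2246, 3063 and 2526 on the LPS arrays (2.43 ± 0.16), and the granule protein Ngp (1.5 ± 0.15) and the granulocyte factor Cebpe (1.5 ± 0.11) also rose. The part of these rises in the results below was not tested. The defining genes Cxcr2, S100a8 and S100a9 were above background on all 5 arrays, and Ly6g was not analysed here. Sums are of intensities without background correction over every listed gene on the array, and a gene without signal adds about 149. For most other cell types the PBS sums lay well above that floor and the LPS sums were lower. The summed intensity of 16 macrophage markers was 288403.0 to 289733.0 on the PBS arrays and 79347.0 to 83353.0 on the LPS arrays, with 14 members lower and 1, the scavenger receptor Marco, higher. B cell markers (8 of 9 lower) summed to 69339.0 to 71458.0 on the PBS arrays and 13027.0 to 13612.0 on the LPS arrays. T and NK cell markers (10 of 10 lower) summed to 74540.0 to 78894.0 on the PBS arrays and 23098.0 to 24128.0 on the LPS arrays. Erythroid markers (9 of 10 lower) summed to 82762.0 to 84175.0 on the PBS arrays and 28140.0 to 31292.0 on the LPS arrays. Endothelial and stromal markers (12 of 16 lower, 2 higher) summed to 19430.0 to 21341.0 on the PBS arrays and 5015.0 to 5136.0 on the LPS arrays. Dendritic cell markers (7 of 8 lower, 1 higher) summed to 58002.0 to 63988.0 on the PBS arrays and 16993.0 to 18051.0 on the LPS arrays. Most of the dendritic cell sum came from the class II gene H2-Ab1, at 58693 and 52715 on the PBS arrays and 14303, 13677 and 14117.5 on the LPS arrays. The largest fall of that list, Clec4g, is given below as an endothelial gene. The sum thus does not stand for dendritic cells alone. Platelet markers (6 of 9 lower) summed to 2766.0 to 3037.0 on the PBS arrays and 1912.0 to 2053.0 on the LPS arrays, against 1341 for 9 genes without signal. Eosinophil, basophil and mast cell markers (5 of 8 tested lower, 13 summed) reached 4471.0 to 4586.0 on the PBS arrays and 2777.0 to 2865.0 on the LPS arrays, against 1937 without signal. The monocyte sum was not lower after LPS, at 20907.0 to 23997.0 on the PBS arrays and 24108.0 to 24207.0 on the LPS arrays, with 2 of 6 members higher and 2 lower. Ly6c1 carried much of it, at 8957 and 10216 on the PBS arrays and 15059, 15144.5 and 15421 on the LPS arrays. Spn (0.48 ± 0.11) rose too, while Cx3cr1 (-3.26 ± 0.14) and F13a1 (-1.03 ± 0.14) fell. Ly6c2 and Csf1r were not analysed here, so this sum does not show that monocytes were unchanged. Among defining markers, Ccr2, Ncr1, Epx, Siglecf, Itgax and Xcr1 were not above background on enough arrays to be tested. In such bulk samples, fewer cells of a type and less RNA per cell cannot be told apart.

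**Figure D1:**
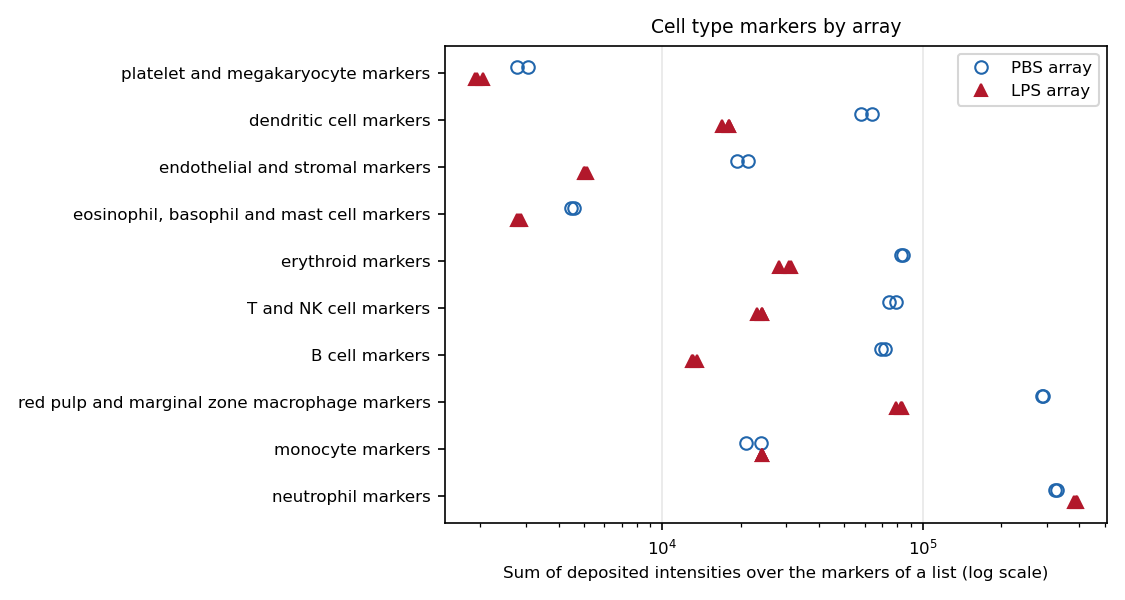
Summed intensity of the markers of 10 cell types on each array, on a log scale, with PBS arrays as open circles and LPS arrays as triangles. Neutrophil sums lie at 323527 to 327649 (PBS) and 380178 to 391602 (LPS), while the macrophage, B cell, T and NK cell, erythroid, endothelial and dendritic cell sums lie lower on every LPS array than on both PBS arrays.

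The response at 48 h was broad. Of the 10169 genes, 2628 (25.8%) were higher and 3082 (30.3%) lower after LPS, so that 56.2% passed the test and 4459 did not. At least 2-fold changes were seen for 649 genes upward (6.38%) and 835 downward (8.21%), at least 8-fold changes for 46 and 37. The median log2 change over all genes was 0, a value that quantile normalization holds near 0 in advance. The median standard error was 0.11. Pairs of arrays differed by an SD of 0.16 (log2) within PBS, 0.18 to 0.21 within LPS and 0.79 to 0.81 between the groups. The LPS arrays did not overlap the PBS arrays for 71.6% of the genes. For 301 genes the 95% interval of the change lay within 0.25 of 0 on the log2 scale. The 10 brightest of these were Fth1, Rpl41, Zyx, Rps20, Laptm5, Cd52, Slpi, Adipor1, Vps28 and Wbp2. Ferritin heavy chain (Fth1) stood at 64351 and 64679 on the PBS arrays and 64896, 62239 and 63374 on the LPS arrays, and the leukocyte protease inhibitor Slpi at 33489.8 and 32126 on the PBS arrays and 32003, 31132 and 32839.5 on the LPS arrays. The Fth1 values lie near the top of the scale, where a change can be compressed.

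**Figure D2:**
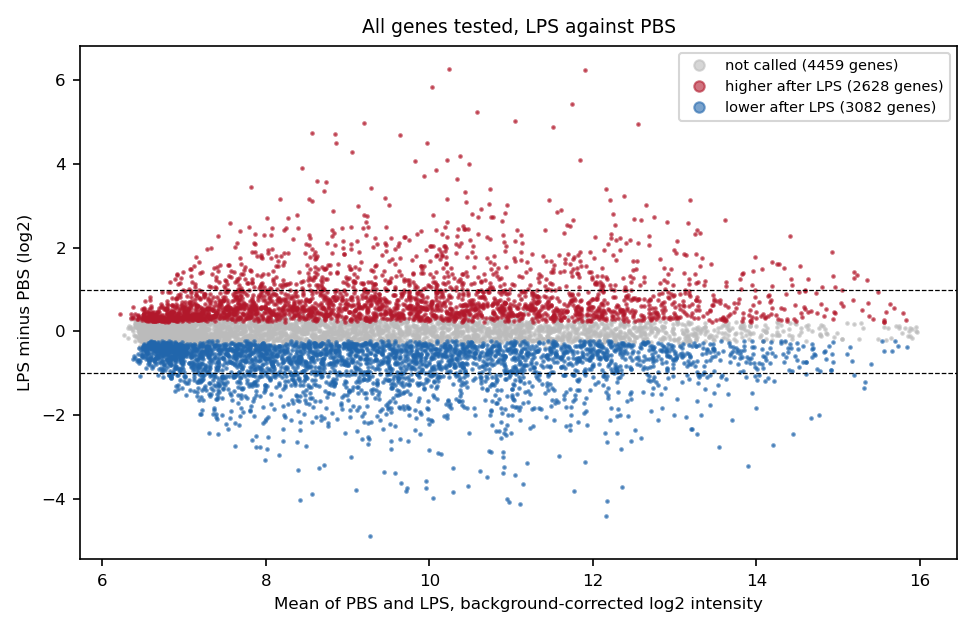
Log2 change (LPS minus PBS) of each of the 10169 genes against the mean log2 intensity of both groups after background correction. Red points are the 2628 genes called higher, blue points the 3082 called lower and grey points the 4459 not called, and dashed lines mark 2-fold changes.

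The 20 largest rises and 20 largest falls were ranked after a list of genes was set aside, which held the well known inflammatory genes, many cell type markers and further genes whose results in these data were already known. Changes as large or larger among the genes set aside included the rise of Rab15, given below, and the falls of transferrin (Trf, -4.41 ± 0.14), the endothelial genes Plvap (-3.82 ± 0.30) and Clec4g (-3.88 ± 0.17, above background on 1 of 3 LPS arrays) and the eosinophil receptor Ccr3 (at least 13.6-fold lower). Gpnmb, a transmembrane glycoprotein of lysosomes and melanosomes (probe ILMN_2648669), stood at 221 and 229.6 on the PBS arrays and 3988, 4024 and 4346 on the LPS arrays, a 25.7-fold rise (log2 change 4.69 ± 0.09, adjusted p = 1.2e-11). Adamtsl4, a secreted matrix glycoprotein (probe ILMN_2459899), stood at 275 and 286 on the PBS arrays and 4764, 4852 and 4936 on the LPS arrays (4.49 ± 0.10, adjusted p = 3e-11). Both genes were barely above background in PBS and bright in all LPS arrays, with arrays of a group close together. Edn1, the precursor of the vessel-constricting peptide endothelin (probe ILMN_2737713), stood at 188 and 188 on the PBS arrays and 2405, 2346 and 2506 on the LPS arrays (4.29 ± 0.11, adjusted p = 7.6e-11). Mreg, melanoregulin, a protein of lysosome-related organelles (probe ILMN_2976159), stood at 385 and 375 on the PBS arrays and 5689, 6756 and 4938 on the LPS arrays (4.18 ± 0.15, adjusted p = 6.9e-10). Its LPS arrays spread more widely than those of Edn1, and for neither gene did the groups overlap. F10, which encodes coagulation factor X (probe ILMN_2688912), stood at 889 and 1034 on the PBS arrays and 15628, 14536 and 15715 on the LPS arrays (4.09 ± 0.11, adjusted p = 8.1e-11). Mmp14, a membrane-bound collagenase (probe ILMN_1240726), stood at 436 and 417 on the PBS arrays and 6019, 5475 and 5802 on the LPS arrays (3.99 ± 0.09, adjusted p = 3.3e-11). F10 was thus already measured in PBS and was among the brighter transcripts after LPS.

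Smpdl3b, a membrane-anchored phosphodiesterase related to acid sphingomyelinase (probe ILMN_2602938), stood at 1456 and 1514 on the PBS arrays and 14549, 14928 and 15439 on the LPS arrays (3.39 ± 0.12, adjusted p = 8.7e-10). Cish, an inhibitor of cytokine signalling of the SOCS family (probe ILMN_2718330), stood at 608 and 580.0 on the PBS arrays and 5789, 5372 and 5605 on the LPS arrays (3.39 ± 0.09, adjusted p = 8e-11). Id2, which blocks DNA binding by E proteins (probe ILMN_1228557), stood at 318 and 288 on the PBS arrays and 2292, 1966 and 2328 on the LPS arrays (3.18 ± 0.13, adjusted p = 1.7e-09). All LPS arrays of these genes lay at several times the PBS values. The other large rises were the transporter gene Mfsd7a (4.09 ± 0.14), the membrane dipeptidase Dpep2 (4.06 ± 0.09), the secreted Crispld2 (3.86 ± 0.13), the disulfide-forming oxidase Qsox1 (3.60 ± 0.10) and the dynein heavy chain Dnah2 (3.57 ± 0.10). The tight junction protein Cldn1 (3.42 ± 0.19), the tubulin Tuba8 (3.36 ± 0.10), the matrix protein Ecm1 (3.32 ± 0.09) and Schip1 (3.16 ± 0.09) completed them, with Csta2 and Rab33a, which were measured after LPS alone and are given below. Csta2, a cysteine protease inhibitor of the cystatin A family, lay below background in PBS and was higher by at least 7.35-fold after LPS (adjusted p = 5.5e-10).

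Promoters were searched for 8 motifs of transcription factors. Promoter sequences from RefSeq (GRCm38.p6, 250 bases before to 50 after the annotated start) were matched for 8292 of the 10169 genes, and motifs were searched on both strands. The AP-1 motif, spelled TGANTCA, was in 10.5% of 535 promoters of genes at least 2-fold higher, in 5.38% of 669 promoters of genes at least 2-fold lower and in 5.92% of all 8292. An interferon response motif (GAAA, any 2 bases, then GAAA again) was in 7.29%, 3.74% and 3.26%. The NF-kB motif was in 13.3%, 9.42% and 10.1%, and the E-box CACGTG in 11%, 10% and 9.85%. The PU.1 motif GAGGAAGT was in 4.67%, 4.63% and 3.15%, a like share of genes that rose and fell. The C/EBP motif TTGCNNAA was in 7.85%, 9.27% and 8.89%, and the cyclic AMP element TGACGTCA in 1.87%, 1.2% and 2.94%, so that both were less frequent in genes that rose than in all genes. The glucocorticoid element was in 2 of the 535 promoters, 0 of the 669 and 26 of the 8292. The shares were not tested, and a match describes the letters and is not a shown binding site. The promoters of Gpnmb (chr6:49036268-49036567, plus strand) and Smpdl3b (chr4:132757122-132757421, minus strand) are shown, with each match in capitals. Among the 20 largest rises named above, Gpnmb was the largest with an AP-1 match and Smpdl3b the largest with an NF-kB match. Genes set aside from that ranking did not enter this choice.
Gpnmb: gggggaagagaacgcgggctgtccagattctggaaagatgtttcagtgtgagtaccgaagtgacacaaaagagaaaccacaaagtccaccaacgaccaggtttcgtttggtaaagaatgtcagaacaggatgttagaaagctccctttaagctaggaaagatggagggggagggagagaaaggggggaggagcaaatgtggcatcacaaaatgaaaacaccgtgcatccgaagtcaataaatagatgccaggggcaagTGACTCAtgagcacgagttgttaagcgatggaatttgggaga
Smpdl3b: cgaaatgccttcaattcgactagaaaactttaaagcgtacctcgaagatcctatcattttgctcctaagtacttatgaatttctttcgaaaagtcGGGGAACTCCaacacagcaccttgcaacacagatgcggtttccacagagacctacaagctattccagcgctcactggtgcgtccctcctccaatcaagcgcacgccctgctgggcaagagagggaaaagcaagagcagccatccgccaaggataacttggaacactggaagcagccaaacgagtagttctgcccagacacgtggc

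The falls of the same ranking began with Slc12a2, a sodium, potassium and chloride cotransporter (probe ILMN_2700059), which stood at 13303 and 12838 on the PBS arrays and 1034, 992 and 961 on the LPS arrays (-3.81 ± 0.09, adjusted p = 2.7e-11). Cyp27a1, the sterol 27-hydroxylase (probe ILMN_2960108), stood at 3286 and 3076 on the PBS arrays and 284, 302 and 315 on the LPS arrays (-3.75 ± 0.12, adjusted p = 3e-10). Nav1, a microtubule-associated neuron navigator (probe ILMN_2647873), stood at 3739.5 and 3632 on the PBS arrays and 342, 352 and 326 on the LPS arrays (-3.73 ± 0.11, adjusted p = 1.4e-10). Each was bright in PBS and remained above background after LPS, with no overlap of the groups. Ptgis, the prostacyclin synthase (probe ILMN_2724942), stood at 2391 and 2217 on the PBS arrays and 309, 273 and 276 on the LPS arrays (-3.36 ± 0.10, adjusted p = 1.6e-10). Fcgrt, the neonatal Fc receptor that spares antibodies from breakdown (probe ILMN_2917497), stood at 11867 and 10838 on the PBS arrays and 1431, 1351 and 1329.8 on the LPS arrays (-3.11 ± 0.11, adjusted p = 5.5e-10). Selenop, the plasma carrier of selenium (probe ILMN_3141048), stood at 5121 and 5848 on the PBS arrays and 690.1, 825 and 721 on the LPS arrays (-3.0 ± 0.11, adjusted p = 1.1e-09). All LPS arrays of these genes lay well below both PBS arrays.

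Several of the remaining large falls encode transporters. The phospholipid exporter Abcb4 (-3.37 ± 0.11), Abca9 (-3.30 ± 0.11), the organic anion exporter Abcc3 (-3.15 ± 0.12) and the lysosomal transporter Slc46a3 (-3.44 ± 0.11) fell. So did the lipid phosphatase Plpp3 (-3.64 ± 0.16), the epoxide hydrolase Ephx1 (-3.47 ± 0.10), the hyaluronan scavenger receptor Stab2 (-3.58 ± 0.16), the integrin chain Itgb5 (-2.93 ± 0.13), the chondroitin sulfotransferase Chst3 (-2.90 ± 0.10) and Adam23 (-2.94 ± 0.09). Rims3, known from synapses (-3.70 ± 0.10), Maged1 (-3.63 ± 0.16) and Paqr9 (-3.26 ± 0.11) also fell. Gpr34, a lysophosphatidylserine receptor, stood at 803 and 813 on the PBS arrays and 155, 161 and 150.5 on the LPS arrays, below background on every LPS array and at least 7.3-fold lower (adjusted p = 2.5e-10). The macrophage and endothelial marker sums given above moved the same way as these genes, and their part in the falls was not tested.

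**Figure D3:**
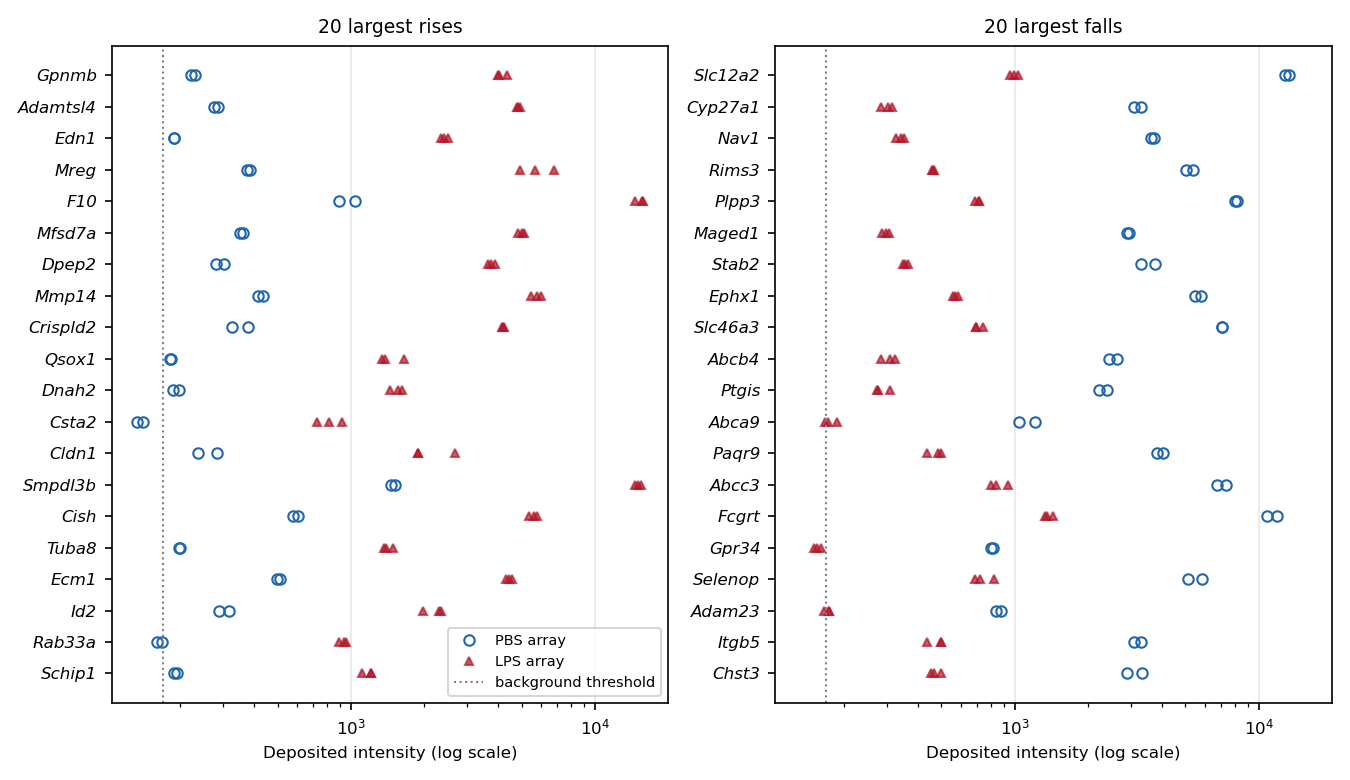
Intensity on each array, on a log scale, of the 20 largest rises and 20 largest falls outside the genes set aside, with PBS arrays as circles, LPS arrays as triangles and the background threshold of 169 as a dotted line. For every gene shown the LPS arrays lie on one side of both PBS arrays, which the choice of these genes fixed, and Csta2 and Rab33a lie below the threshold in PBS and Gpr34 after LPS.

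Some genes were measured in a single group, 200 on the LPS arrays only and 307 on the PBS arrays only. Rab15, a small GTPase of endosome recycling, stood at 148 and 167 on the PBS arrays and 2432, 2380.5 and 2446 on the LPS arrays and was at least 23.2-fold higher (adjusted p = 4.9e-11). Rab33a, a GTPase of the Golgi family, was at least 8.48-fold higher, the secretory kinase Fam20c at least 5.19-fold, the trophoblast glycoprotein Tpbg at least 4.63-fold and the receptor Gpr31b at least 4.58-fold. Rnase2a (at least 3.71-fold), Dach1 (at least 3.16-fold) and Bmp8a (at least 2.76-fold) followed. In the other direction, the endothelial proteoglycan Esm1 was at least 6.76-fold lower, Ppp1r9a at least 6.05-fold, the amino acid transporter Slc38a5 at least 5.49-fold and the endothelial Mmrn2 at least 5.04-fold. Col14a1, a fibril-associated collagen, Fkbp9 and Fxyd6 were at least 4.15-fold, 4.09-fold and 3.93-fold lower.

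Transcripts of high abundance also shifted. Among genes at least 2-fold higher, the brightest after LPS were the activating antibody receptor Fcgr4 (27518 ± 676 to 64438 ± 614, mean ± SD of the intensity from PBS to LPS), the peptidoglycan-binding Pglyrp1 (24266 ± 346 to 61740.0 ± 1620.0) and the formyl peptide receptor Fpr2 (22888 ± 1020.0 to 61677 ± 510.0). The transcription factor Cebpb, Lrg1, Slfn1, the protease inhibitor Cstb, the NADPH oxidase subunit Ncf4, Klhl6 and the adaptor Samsn1 followed, with log2 changes from 1.05 ± 0.09 for Slfn1 to 1.65 ± 0.12 for Samsn1. Fcgr4, Pglyrp1 and Fpr2 lay near the highest intensity of the array after LPS. Among genes at least 2-fold lower, the brightest in PBS were the globin Hba-a1, the iron exporter Slc40a1, the class II chaperone Cd74, the adhesion molecule Vcam1 and the lectin Fcna. Fcna fell from 48268 ± 182 to 7412 ± 65.5 and Slc40a1 from 62524 ± 403 to 27021 ± 1150.0. C1qb, Tmsb10, Cd81, Gm2a and Eif4a2 were next, with log2 changes from -1.18 ± 0.10 for C1qb to -1.04 ± 0.09 for Gm2a. Hba-a1 is an erythroid marker, and Slc40a1, Vcam1 and C1qb belong to the macrophage marker list whose sums are given above.

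A set of 49 lists of genes by pathway or family described the rest of the response. Each is set beside all genes, of which 25.8% rose and 30.3% fell with a median of 0. The lists with the highest medians were bZIP transcription factors (0.30) and paired and inhibitory myeloid receptors (0.29), and those with the lowest were the tricarboxylic acid cycle (-0.31), tetraspanins and MS4A proteins (-0.29) and splicing factors (-0.26). In several lists many members moved both ways and the median stayed near 0. With 56.2% of all genes called, calls in both directions alone do not set a list apart.

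**Figure D4:**
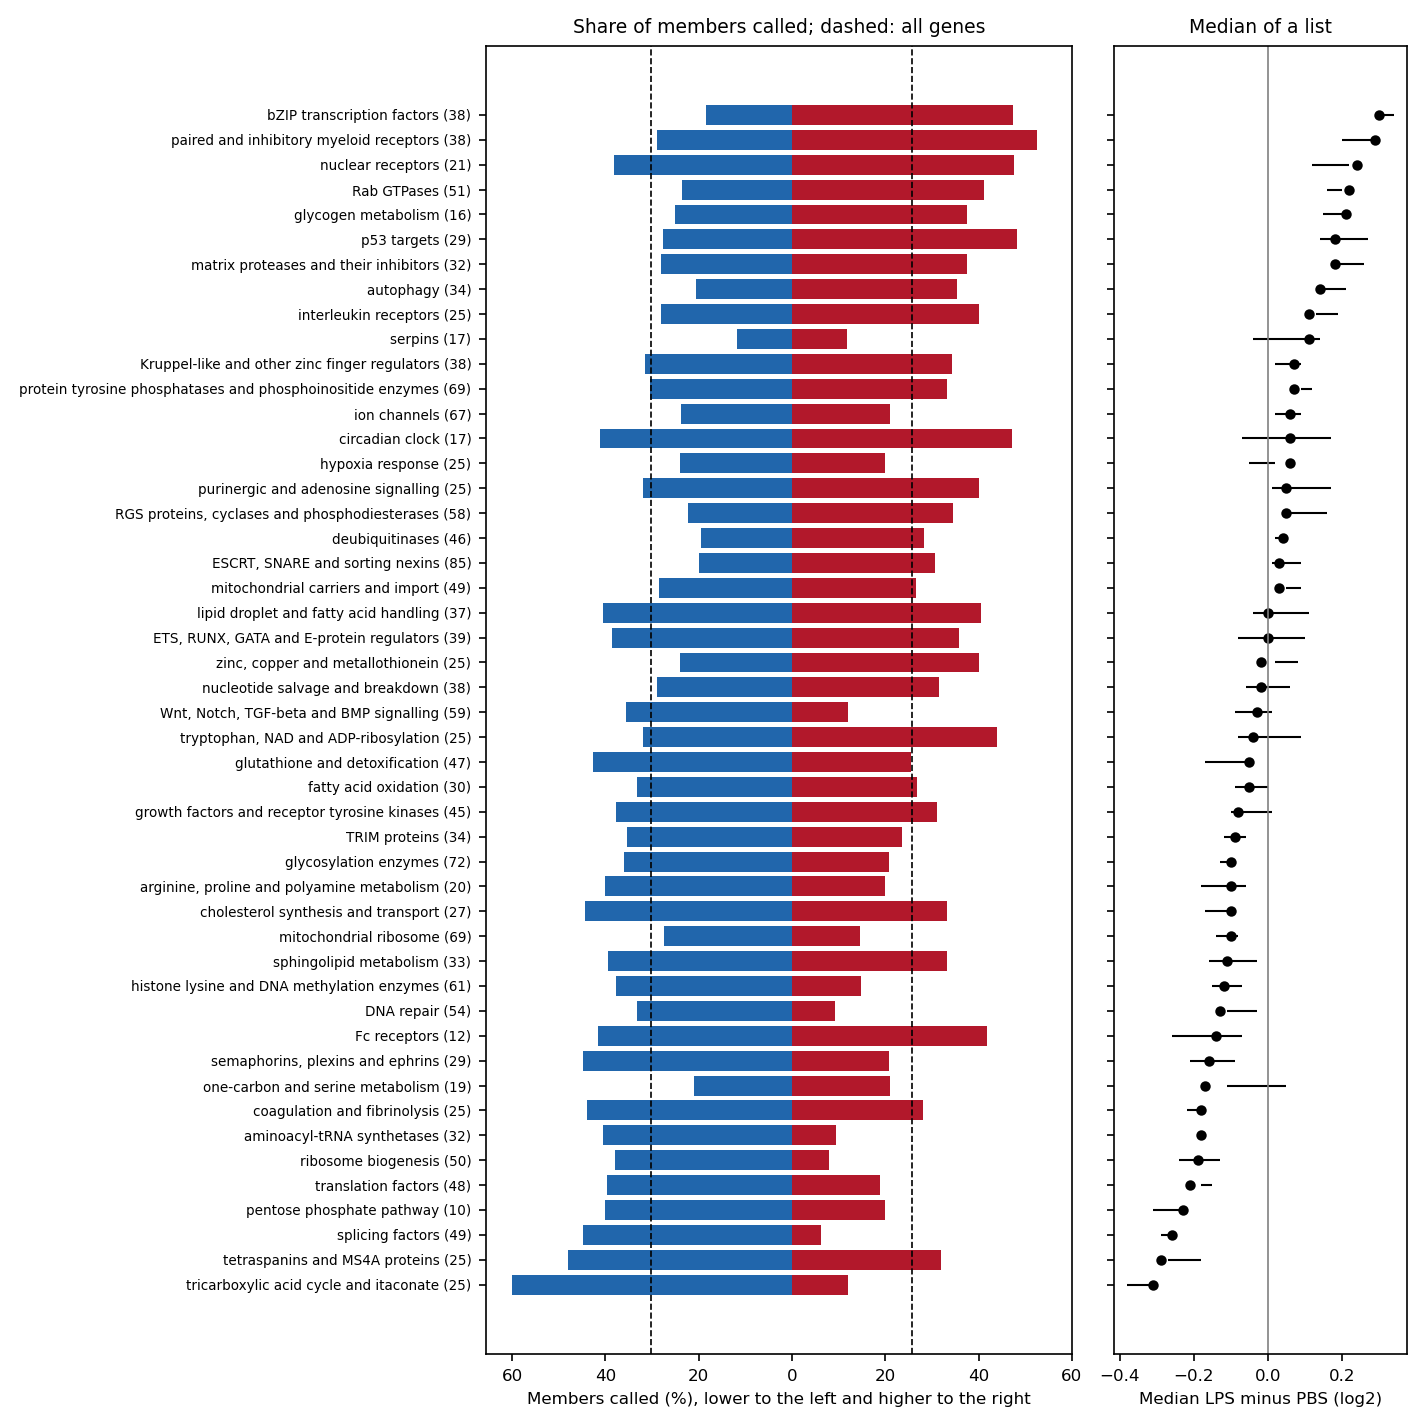
For 48 lists (members tested in brackets), the percentage of members called higher (red, to the right) and lower (blue, to the left), with dashed lines at the shares of all genes (25.8% and 30.3%), and beside it the median log2 change as a point, with a line for the range of the medians taken on each LPS array alone. The bZIP factors and the paired myeloid receptors have the highest medians (0.30 and 0.29) and the tricarboxylic acid cycle the lowest (-0.31), while lists such as the circadian clock have large shares both ways and a median near 0.

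Receptors of the myeloid cell surface were prominent among the rises. Of 38 paired and inhibitory receptors, which tune myeloid cells through activating and inhibitory motifs, 20 rose (52.6%) and 11 fell (28.9%). Lilrb4a, an inhibitory immunoglobulin-like receptor, stood at 602 and 677 on the PBS arrays and 3442, 3298 and 3230.0 on the LPS arrays (2.51 ± 0.10, adjusted p = 1.9e-09). Tarm1, an activating receptor of the same class, stood at 218 and 202 on the PBS arrays and 771, 967 and 853 on the LPS arrays (2.48 ± 0.12, adjusted p = 8.9e-09). Slamf9 (2.43 ± 0.17) and Lilr4b (2.42 ± 0.11) had rises of like size, and inhibitory receptors with sialic acid or lipid ligands, Cd33 (2.29 ± 0.10), Siglece (1.79 ± 0.15), Cd300lf (2.17 ± 0.17) and Pilra (2.0 ± 0.10), rose with the activating Trem1 (1.72 ± 0.12) and Trem3 (1.25 ± 0.10). Lilrb4a and Lilr4b are close paralogs, and their probes may share signal. The adaptors that serve many activating members differed little, Tyrobp at 0.17 ± 0.10 (adjusted p = 0.16) and Hcst at 0.07 ± 0.10 (adjusted p = 0.6). The falls included Cd300ld (-1.70 ± 0.11), the B cell lectin Cd22 (-1.61 ± 0.13) and Sirpb1a (-1.37 ± 0.17), and Cd300lg was at least 3.19-fold lower.

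Fc receptors moved in opposite directions. Of 12 tested, 5 rose and 5 fell. The inhibitory receptor Fcgr2b stood at 2358 and 2182.2 on the PBS arrays and 10037, 11667 and 9867 on the LPS arrays (2.24 ± 0.12, adjusted p = 1.9e-08) and had no overlap between the groups. The activating receptor Fcgr3 (0.64 ± 0.10) and the intracellular antibody receptor Trim21 (0.89 ± 0.09) rose, as did the activating Fcgr4, whose LPS intensities lay near the top of the scale, where a change can be compressed, and the high-affinity receptor Fcgr1 did not pass (-0.16 ± 0.09, adjusted p = 0.17). The shared signalling chain Fcer1g was at 0.27 ± 0.09, near the top of the scale, and lost its call without PBS 1 (adjusted p = 0.23 in limma) or without LPS 3 (adjusted p = 0.058 in limma). Fcgrt, Fcer2a (-3.78 ± 0.17), Fcrla (-2.02 ± 0.09) and Fcrl1 (-0.58 ± 0.15) fell, with Fcrl5 at -0.27 ± 0.11, whose call was lost without any 1 of the 5 arrays (limma adjusted p from 0.052 without LPS 2 to 0.31 without PBS 1). Fcer2a is also a B cell marker, and the B cell sum was 69339.0 to 71458.0 on the PBS arrays and 13027.0 to 13612.0 on the LPS arrays. Its part in these falls was not tested.

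Other receptors also changed. In purinergic and adenosine signalling, 10 of 25 genes rose and 8 fell. The adenosine receptor Adora3 stood at 200.2 and 194 on the PBS arrays and 1196, 1198 and 1164 on the LPS arrays (3.11 ± 0.09, adjusted p = 1.1e-10), close to background in PBS and far above it in every LPS array. The nucleotide receptors P2ry2 (1.89 ± 0.14), P2rx1 (1.80 ± 0.15) and P2rx7 (1.14 ± 0.12) rose. The nucleoside carrier Slc29a1 (-1.58 ± 0.18), the nucleotidase Nt5e, which makes adenosine (-0.96 ± 0.11), the nucleotide-hydrolysing Entpd4 (-1.35 ± 0.09) and the ATP release channel Panx1 (-0.99 ± 0.11) fell. Among 25 interleukin receptors 10 rose and 7 fell. Il18rap, a signalling chain for interleukin 18, rose (intensity 302 ± 0.34 to 1107 ± 42) while the ligand-binding chain Il18r1 fell (-0.75 ± 0.13). Il15ra (2.06 ± 0.10), Il20rb (1.96 ± 0.12) and the decoy receptor Il1r2 (3.02 ± 0.10) rose, and Il27ra (-1.80 ± 0.17) and Il7r (-1.01 ± 0.15) fell. Tetraspanins and MS4A proteins, which organise membrane domains, had 8 higher and 12 lower of 25. Cd63, found in lysosomes and azurophil granules, stood at 2400.3 and 2505 on the PBS arrays and 10838, 12413 and 10412 on the LPS arrays (2.22 ± 0.10, adjusted p = 5.8e-09). Cd9 (1.5 ± 0.11), Ms4a6d (1.09 ± 0.13) and Cd53 (0.73 ± 0.10) rose, and Ms4a7 (-1.64 ± 0.16), the B cell marker Ms4a1 (-1.37 ± 0.11) and Cd81 (-1.17 ± 0.09) fell.

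Below the receptors, regulators of G protein, phosphoinositide and small GTPase signalling were called in both directions. The receptor kinase Grk5 (1.74 ± 0.18) and the arrestin Arrb2 (1.62 ± 0.12), which desensitise G protein coupled receptors, rose with the cAMP-degrading Pde4d (1.21 ± 0.11), while the cyclase Adcy4 (-1.54 ± 0.15) and Rgs10 (-1.25 ± 0.14) fell. In that list 20 of 58 genes rose (34.5%) and 13 fell (22.4%). Phosphatases and phosphoinositide enzymes had 23 higher (33.3%) and 21 lower (30.4%) of 69. Rises included the phosphatase Ptpn1 (1.90 ± 0.15), the kinase subunits and adaptors Pik3r6 (1.78 ± 0.10) and Pik3ap1 (1.31 ± 0.17) and Pik3ip1 (1.91 ± 0.14), an inhibitor of the kinase. The falls included Ptpro (-2.43 ± 0.11) and the inositol phosphatases Inppl1 (-1.67 ± 0.14) and Inpp5f (-1.19 ± 0.11), and Ptprb, an endothelial phosphatase, was at least 2.81-fold lower.

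Rab GTPases, which direct membrane traffic, had 21 of 51 members higher (41.2%) and 12 lower, with a median of 0.22. Beside Rab15 and Rab33a, Rab1a of the transport from the endoplasmic reticulum to the Golgi (2.22 ± 0.11) and Rab4b of endosome recycling (1.18 ± 0.10) rose. Rab6b (-1.77 ± 0.11), Rab38 (-1.33 ± 0.09), Rab39 (-1.18 ± 0.13) and Rab22a (-0.99 ± 0.21) fell.

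Transcription factors of the bZIP class, which includes AP-1 and C/EBP partners, rose more often than they fell. Of 38 tested, 18 rose (47.4%) and 7 fell (18.4%). Batf, which pairs with Jun proteins, stood at 439 and 503 on the PBS arrays and 2948, 2979.6 and 2639 on the LPS arrays (2.79 ± 0.12, adjusted p = 2.4e-09). Jdp2, a Jun dimerisation partner, stood at 733 and 690.3 on the PBS arrays and 2852, 2691 and 3039.5 on the LPS arrays (2.12 ± 0.11, adjusted p = 1.3e-08). Neither gene showed overlap between the groups. Batf2 (1.85 ± 0.10) and Mafg (1.65 ± 0.12) also rose, whereas Batf3, a factor of dendritic cells, fell (-0.79 ± 0.11), as did Atf3 (-0.90 ± 0.12). Among zinc finger regulators (13 of 38 higher, 12 lower), Klf9 stood at 665 and 621 on the PBS arrays and 4038, 5024 and 4361 on the LPS arrays (2.93 ± 0.13, adjusted p = 5.5e-09). Klf5 (2.63 ± 0.10) rose as well, and Klf4 of monocyte differentiation (-1.09 ± 0.10) and the erythroid Klf1 (-1.45 ± 0.10) fell.

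Regulators of blood cell fate moved in both directions. Of 39 ETS, RUNX, GATA, E-protein and related factors, 14 rose (35.9%) and 15 fell (38.5%). Spi1, which encodes PU.1 of the myeloid lineage, stood at 715 and 719 on the PBS arrays and 2606, 2517 and 3182 on the LPS arrays (2.05 ± 0.15, adjusted p = 3.2e-07). Ets1, a factor of lymphocytes, stood at 19825 and 22431 on the PBS arrays and 4290.3, 4538 and 3957 on the LPS arrays (-2.33 ± 0.12, adjusted p = 1.7e-08). The LPS arrays thus lay above both PBS arrays for the first and below them for the second. Id1 (2.33 ± 0.10) and the Myc antagonist Mxd1 (2.09 ± 0.12) rose beside Id2. Mef2c (-2.16 ± 0.11), Foxo1 (-1.86 ± 0.10) and Tcf4 (-1.44 ± 0.10), which serve B cells and plasmacytoid dendritic cells among others, fell. Myc itself was at 0.01 ± 0.12 (adjusted p = 0.96). In the same arrays the B cell and T and NK cell sums were lower, as given above, and their part in these falls was not tested.

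Nuclear receptors had 10 of 21 members higher and 8 lower. The vitamin D receptor Vdr stood at 169 and 195 on the PBS arrays and 553, 489.8 and 606 on the LPS arrays (2.08 ± 0.14, adjusted p = 1.1e-07). Pparg, the fatty acid receptor PPAR gamma, stood at 2602 and 3028 on the PBS arrays and 488, 415 and 449.8 on the LPS arrays (-2.84 ± 0.11, adjusted p = 1.2e-09). The groups did not overlap for either receptor. Esrra (1.01 ± 0.10), Rxra (0.66 ± 0.10) and Rara (0.62 ± 0.13) rose. The oxysterol receptor Nr1h3 (-0.96 ± 0.18) and Rarg (-0.83 ± 0.13) fell. In the same arrays the macrophage marker sum was lower, as given above, and its part in the falls of nuclear receptors was not tested. Wnt, Notch, TGF-beta and BMP genes had 7 higher (11.9%) and 21 lower (35.6%) of 59. Notch1 (1.05 ± 0.12) and the activin subunit Inhba (1.20 ± 0.17) rose, while Hes1 (-2.05 ± 0.11) and Dtx1 (-1.45 ± 0.11), which act downstream of Notch, the Wnt target Axin2 (-1.29 ± 0.12) and the endothelial co-receptor Eng (-1.20 ± 0.14) fell. Tgfb1 (-1.12 ± 0.14) and its receptor chains Tgfbr1 (-0.71 ± 0.11) and Tgfbr2 (-1.09 ± 0.11) fell too.

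The circadian clock changed almost throughout. Of 17 genes 8 rose and 7 fell, and Cry2 and Csnk1e did not pass the test. Dbp, a clock output factor driven through E-boxes, stood at 3386 and 3344 on the PBS arrays and 959.9, 904 and 1044 on the LPS arrays (-1.87 ± 0.12, adjusted p = 6.5e-08). Per1, a repressor of the clock, stood at 795 and 692 on the PBS arrays and 3134, 2922 and 3405 on the LPS arrays (2.19 ± 0.11, adjusted p = 1.2e-08). Usp2, a rhythmic deubiquitinase, stood at 279.8 and 269 on the PBS arrays and 1234, 1179 and 1233 on the LPS arrays (2.47 ± 0.09, adjusted p = 5.9e-10). All LPS arrays lay below PBS for Dbp and above it for Per1 and Usp2. The repressors Bhlhe40 (2.05 ± 0.12), Nfil3 (1.37 ± 0.11), Ciart (0.93 ± 0.11) and Per2 (0.53 ± 0.13) rose, whereas the repressor Nr1d2 fell (-1.27 ± 0.11). The kinase Csnk1d rose on its brightest probe (1.26 ± 0.09), while another of its probes (ILMN_3103652) was called lower (-0.51 ± 0.09). The activators Clock (-0.77 ± 0.12) and Arntl (-0.78 ± 0.11) and the output factor Tef (-1.21 ± 0.13) fell, and Rora was at least 1.45-fold lower. Collection times of day were not given in the sources used here for either group. The E-box was present in the promoters of both Per1 (chr11:69098699-69098998, plus strand) and Tef (chr15:81802423-81802722, plus strand), which moved in opposite directions and are shown for that reason with the E-box in capitals.
Per1: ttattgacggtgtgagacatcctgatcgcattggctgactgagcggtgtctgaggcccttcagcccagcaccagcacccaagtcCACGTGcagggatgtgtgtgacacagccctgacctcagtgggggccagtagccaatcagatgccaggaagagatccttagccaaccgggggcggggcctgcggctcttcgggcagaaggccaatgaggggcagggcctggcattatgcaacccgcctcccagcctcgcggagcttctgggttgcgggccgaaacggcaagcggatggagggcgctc
Tef: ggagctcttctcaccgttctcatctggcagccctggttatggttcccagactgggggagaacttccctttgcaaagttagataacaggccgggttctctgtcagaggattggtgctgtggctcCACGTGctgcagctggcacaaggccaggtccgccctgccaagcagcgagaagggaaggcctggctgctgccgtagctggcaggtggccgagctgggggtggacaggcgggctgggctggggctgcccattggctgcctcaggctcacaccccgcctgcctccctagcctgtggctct

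Lipid metabolism showed opposite changes within single lists. Among 37 genes of lipid droplets and fatty acid handling 15 rose (40.5%) and 15 fell (40.5%), with a median of 0.00. Plin2, the main droplet coat protein, stood at 456 and 504 on the PBS arrays and 1876, 2672 and 1921 on the LPS arrays (2.32 ± 0.16, adjusted p = 1.7e-07). Dgat2, which makes triglyceride, stood at 2038 and 1945 on the PBS arrays and 6578, 6705 and 7283 on the LPS arrays (1.82 ± 0.10, adjusted p = 3e-08). Scd1, the desaturase that makes oleate, stood at 5341 and 5696 on the PBS arrays and 1765, 1674 and 1869.9 on the LPS arrays (-1.68 ± 0.10, adjusted p = 3.7e-08). The rises covered acyltransferases (Agpat4 at 2.30 ± 0.13, Agpat2 at 1.29 ± 0.10, Dgat1 at 1.05 ± 0.11) and lipase inhibitors (G0s2 at 1.51 ± 0.12, Hilpda at 1.36 ± 0.15), but also the lipase Pnpla2 (1.11 ± 0.09). The falls covered desaturation and elongation (Fads1 at -1.66 ± 0.09, Elovl5 at -0.83 ± 0.10, Elovl6 at -0.75 ± 0.12), the acyl-CoA ligase Acsl3 (-1.65 ± 0.12) and the phosphatidate phosphatase Lpin1 (-1.37 ± 0.10). Fasn did not pass (-0.10 ± 0.12, adjusted p = 0.49).

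Fatty acid oxidation had 8 higher (26.7%) and 10 lower (33.3%) of 30, near the shares of all genes. Slc25a20, the carnitine carrier of the mitochondrial membrane, stood at 2382 and 2258 on the PBS arrays and 7485, 7960.2 and 7456 on the LPS arrays (1.75 ± 0.09, adjusted p = 1e-08), with no overlap. The dehydrogenase for long chains, Acadl (1.53 ± 0.10), rose and that for medium chains, Acadm (-1.40 ± 0.12), fell, as did the peroxisomal Hsd17b4 (-1.26 ± 0.09). Sphingolipid genes had 11 higher and 13 lower of 33. Enzymes of ceramide and sphingomyelin synthesis, Cers6 (1.65 ± 0.12), Sgms2 (1.22 ± 0.10) and Sgms1 (1.11 ± 0.11), and the sphingosine kinase Sphk2 (1.43 ± 0.12) rose. Genes of lysosomal glycolipid breakdown, Hexa (-1.80 ± 0.13), Glb1 (-1.40 ± 0.11) and the activator Gm2a (-1.04 ± 0.09), fell, and so did the ceramidase Asah2 (-1.47 ± 0.12). Of 27 cholesterol genes 9 rose and 12 fell. The sterol regulator Srebf2 (1.17 ± 0.13) and synthesis enzymes Mvd (0.98 ± 0.10) and Msmo1 (0.96 ± 0.09) rose. Srebf1 (-1.07 ± 0.11), Nr1h3 and the lipoprotein Apoe (-2.64 ± 0.10) fell with Cyp27a1. The macrophage marker sum was 288403.0 to 289733.0 on the PBS arrays and 79347.0 to 83353.0 on the LPS arrays. Its part in the falls of lipid genes was not tested.

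In central metabolism, the tricarboxylic acid cycle list had the largest share of falls of the 49 lists, 15 of 25 genes (60%), with 3 rises and a median of -0.31. Fumarase (Fh1) stood at 1591 and 1767 on the PBS arrays and 772, 818 and 736 on the LPS arrays (-1.19 ± 0.10, adjusted p = 9.5e-07), and the groups did not overlap. The isocitrate dehydrogenase Idh1 (-0.97 ± 0.17), the succinate ligase subunit Suclg2 (-1.01 ± 0.12) and the malic enzyme Me2 (-1.02 ± 0.09) fell, while the malate dehydrogenase Mdh2 rose (0.90 ± 0.09). Smaller rises of Sdhb (0.41 ± 0.15) and Sdhd (0.45 ± 0.15) lost their calls without PBS 1 (limma adjusted p = 0.24 and 0.072), the former also without LPS 2 (0.096) and with a replicate block (0.063), the latter also without PBS 3 (0.11) or LPS 3 (0.065). The pentose phosphate list had 2 higher and 4 lower of 10, among the latter Prps2 (-0.90 ± 0.13) and Rpia (-0.63 ± 0.12). Glycogen genes had 6 higher and 4 lower of 16. The primer protein Gyg (1.32 ± 0.21), the phosphorylase kinase subunit Phkg2 (0.95 ± 0.11) and the kinase Gsk3b (0.79 ± 0.11) rose, and the phosphorylase Pygb (-1.62 ± 0.09) and the lysosomal glucosidase Gaa (-0.87 ± 0.10) fell.

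Enzymes that make or use NAD moved in opposite directions. Of 25 genes of tryptophan, NAD and ADP-ribosylation 11 rose and 8 fell. Parp9, an interferon-inducible member of the PARP family, stood at 175 and 157 on the PBS arrays and 499, 437 and 457 on the LPS arrays (2.01 ± 0.19, adjusted p = 2.3e-06). Parp1, the main enzyme that marks DNA breaks, stood at 5783 and 4938 on the PBS arrays and 1776, 1751 and 1769 on the LPS arrays (-1.64 ± 0.13, adjusted p = 4.4e-07). The arrays lay in opposite order for these members, without overlap. Parp12 (1.49 ± 0.10) and Parp14 (0.31 ± 0.10) rose, and the other DNA break enzymes Parp2 (-1.05 ± 0.08) and Parp3 (-0.95 ± 0.12) fell. Nampt, which salvages NAD (1.14 ± 0.12), and Bst1, which consumes it (1.76 ± 0.15), rose. Ido1, the entry enzyme of the kynurenine pathway, rose (1.53 ± 0.10), and the later enzyme Kynu fell (-1.73 ± 0.11).

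Nucleotide, amino acid, metal and redox genes were called in both directions, beside 25.8% higher and 30.3% lower of all genes. The nucleotide list (31.6% and 28.9%) lay near those shares, and the one-carbon list (21.1% and 21.1%) below both. Shares were 20% and 40% for arginine, proline and polyamine genes, 40% and 24% for metal genes, and 25.5% and 42.6% for glutathione and detoxification. Nucleotide genes had 12 higher and 11 lower of 38, with the interferon-inducible Cmpk2 (1.24 ± 0.10) and Samhd1 (0.91 ± 0.11) higher and the salvage kinases Dguok (-1.35 ± 0.13), Dck (-1.04 ± 0.10) and Adk (-1.0 ± 0.11) and the salvage enzyme Hprt (-1.17 ± 0.12) lower. Arginine, proline and polyamine genes had 4 and 8 of 20. The spermine oxidase Smox (0.92 ± 0.14) and Arg2 (0.43 ± 0.11) rose, and the creatine enzymes Ckb (-1.5 ± 0.12) and Gamt (-1.31 ± 0.11) and the proline enzymes Aldh4a1 (-1.21 ± 0.11) and Aldh18a1 (-1.07 ± 0.12) fell. One-carbon genes had 4 and 4 of 19, with Mtap (-1.20 ± 0.11) as the largest fall. Metal genes had 10 higher and 6 lower of 25. The copper transporter Slc31a2 (2.22 ± 0.11), the zinc importer Slc39a4 (2.05 ± 0.10), ceruloplasmin Cp (1.88 ± 0.11) and the metallothionein Mt1 (1.10 ± 0.10) rose, and the zinc transporters Slc30a5 (-1.08 ± 0.10) and Slc39a6 (-0.91 ± 0.09) fell. In glutathione and detoxification 12 of 47 rose and 20 fell. Nqo1 (2.31 ± 0.15), the cystine carrier Slc7a11 (2.03 ± 0.15) and Srxn1 (1.53 ± 0.09), which are known targets of the factor NRF2, rose. Gstk1 (-2.56 ± 0.17), the biliverdin reductase Blvrb (-1.99 ± 0.11) and Mgst3 (-1.65 ± 0.11) fell with Ephx1. Blvrb is abundant in red cells, and the erythroid sum was 82762.0 to 84175.0 on the PBS arrays and 28140.0 to 31292.0 on the LPS arrays. Its part was not tested.

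**Figure D5:**
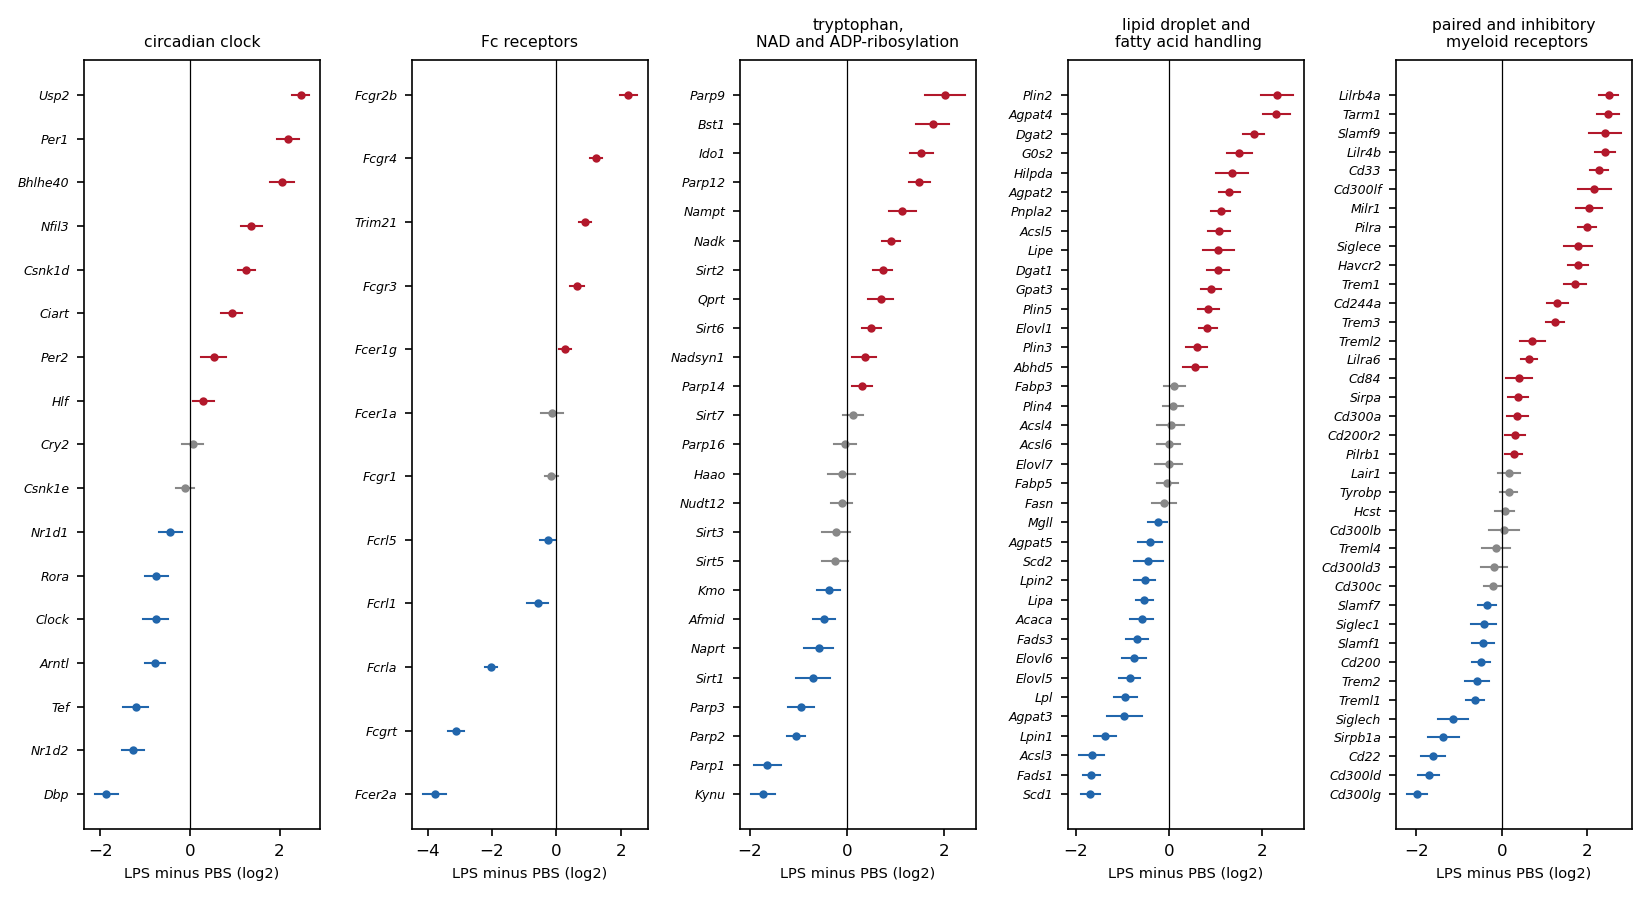
Log2 change (LPS minus PBS) of each tested member of 5 lists, with lines for the 95% interval, in red where called higher, blue where called lower and grey where not called. Per1 (2.19) and Dbp (-1.87), Fcgr2b (2.24) and Fcgrt (-3.11), Parp9 (2.01) and Parp1 (-1.64), Plin2 (2.32) and Scd1 (-1.68), and Lilrb4a (2.51) and Cd300ld (-1.70) moved in opposite directions within their lists.

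Genes of RNA processing and translation were lower more often than higher. Of 49 splicing factors 3 rose (6.12%) and 22 fell (44.9%), with a median of -0.26. Srsf3 stood at 619.7 and 569 on the PBS arrays and 333, 330.1 and 360.0 on the LPS arrays (-0.95 ± 0.09, adjusted p = 3.2e-06), with no overlap, and Prpf19 (-0.89 ± 0.10) and Snrpn (-1.16 ± 0.13) fell too. The rises were the U2 component Sf3b6 (0.94 ± 0.12), the U1 component Snrpc (0.82 ± 0.10) and Hnrnpul1 (0.31 ± 0.10), the last losing its call without PBS 1, PBS 3 or LPS 2 (limma adjusted p = 0.14, 0.059 and 0.079). Ribosome biogenesis had 4 higher (8%) and 19 lower (38%) of 50. Wdr75 (-2.12 ± 0.09), Pes1 (-1.17 ± 0.11) and Ddx18 (-1.01 ± 0.09) fell, whereas Polr1a, the large subunit of RNA polymerase I, rose (1.0 ± 0.13). Mitochondrial ribosomal proteins had 10 higher (14.5%) and 19 lower (27.5%) of 69, and both shares lay below those of all genes (25.8% and 30.3%). Translation factors had 9 and 19 of 48, with the kinase Eif2ak2 (PKR, 0.88 ± 0.10) and the cap-binding Eif4e3 (0.73 ± 0.10) higher and Eef2k (-1.72 ± 0.11) and Eef1d (-1.10 ± 0.10) lower. Of 32 aminoacyl-tRNA synthetases 3 rose, led by the interferon-inducible Wars (0.94 ± 0.11), and 13 fell, led by Farsb (-1.20 ± 0.09) and Iars (-1.05 ± 0.10).

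Among genes of chromatin and repair, too, more were lower than higher. Enzymes that modify histones or DNA, with histone deacetylases among them, had 9 higher (14.8%) and 23 lower (37.7%) of 61. Dnmt3l, a cofactor of DNA methyltransferases known from germ cells, stood at 182 and 183 on the PBS arrays and 739.9, 634 and 732 on the LPS arrays (2.46 ± 0.11, adjusted p = 4.6e-09), close to background in PBS and clear of it after LPS. Prmt2 (-1.85 ± 0.10), Kdm1b (-1.40 ± 0.09) and Hdac10 (-1.29 ± 0.12) fell. DNA repair had 5 higher (9.26%) and 18 lower (33.3%) of 54, with Trp53bp1 (-1.20 ± 0.09) and Mlh3 (-1.03 ± 0.14) beside the PARP members. By contrast, 14 of 29 listed targets of p53 rose (48.3%) and 8 fell. The cell cycle inhibitor Cdkn1a stood at 296 and 288 on the PBS arrays and 1589, 1681 and 1594 on the LPS arrays (2.79 ± 0.20, adjusted p = 2.6e-07), above PBS on every LPS array. The kinases Plk2 (2.99 ± 0.13) and Plk3 (2.26 ± 0.09) rose, and Zmat3 (-1.10 ± 0.10) and Sesn1 (-0.93 ± 0.08), other members of the list, fell.

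Genes of protein turnover and membrane traffic were called both ways, beside 25.8% higher and 30.3% lower of all genes. Shares were 23.5% and 35.3% for TRIM genes and 28.3% and 19.6% for deubiquitinases. They were 30.6% and 20% for ESCRT, SNARE and sorting nexin genes, and 26.5% and 28.6% for mitochondrial carriers and import. TRIM ubiquitin ligases had 8 higher and 12 lower of 34. Trim30d (1.47 ± 0.11), Trim30a (0.98 ± 0.12), Trim30b (0.95 ± 0.11) and Trim21 rose, and the erythroid Trim10 (-3.19 ± 0.11) and the corepressor Trim28 (-0.82 ± 0.09) fell. The Trim30 genes are neighbouring paralogs, and signal shared between their probes was not examined. The promoters of Trim30d (chr7:104507800-104508099, minus strand) and Trim30a (chr7:104465144-104465443, minus strand) are shown because both genes rose and both hold the interferon response motif, which is in capitals.
Trim30d: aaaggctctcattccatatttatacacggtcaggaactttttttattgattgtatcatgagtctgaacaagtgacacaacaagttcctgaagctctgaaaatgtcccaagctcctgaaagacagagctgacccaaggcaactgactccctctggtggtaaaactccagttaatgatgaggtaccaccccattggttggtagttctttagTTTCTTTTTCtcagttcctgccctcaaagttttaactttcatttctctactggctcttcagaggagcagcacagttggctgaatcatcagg
Trim30a: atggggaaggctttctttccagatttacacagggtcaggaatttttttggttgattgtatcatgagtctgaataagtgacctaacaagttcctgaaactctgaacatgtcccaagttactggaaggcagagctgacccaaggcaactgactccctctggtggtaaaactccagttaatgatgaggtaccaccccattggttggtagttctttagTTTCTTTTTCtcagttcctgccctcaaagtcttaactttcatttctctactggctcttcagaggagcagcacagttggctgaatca

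Deubiquitinases had 13 higher and 9 lower of 46. Tnfaip3 (A20), a brake on NF-kB, stood at 648 and 708 on the PBS arrays and 3430.0, 3364 and 3383 on the LPS arrays (2.45 ± 0.09, adjusted p = 6.7e-10). Usp18, which removes ISG15, stood at 3225 and 3362 on the PBS arrays and 13406, 13855 and 13222 on the LPS arrays (2.06 ± 0.09, adjusted p = 2.8e-09). Both were measured in PBS and higher in every LPS array, and Otub2 (-1.70 ± 0.10) fell. Autophagy genes had 12 higher (35.3%) and 7 lower (20.6%) of 34. The early membrane protein Wipi1 (2.06 ± 0.12) and the cargo receptor Sqstm1 (0.80 ± 0.15) rose, and Rubcn (-1.26 ± 0.12), an inhibitor of the pathway, and Ulk2 (-1.46 ± 0.09) fell. ESCRT, SNARE and sorting nexin genes had 26 and 17 of 85, with Snx20 (1.48 ± 0.10) and Chmp4b (0.97 ± 0.09) higher and Snx25 (-2.19 ± 0.12) and Snx24 (-1.5 ± 0.11) lower. Mitochondrial carriers and import had 13 and 14 of 49.

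Enzymes that build sialylated glycans moved in opposite directions. Of 72 glycosylation enzymes 15 rose and 26 fell. St6gal1, which adds sialic acid in alpha-2,6 linkage, stood at 14172 and 13438 on the PBS arrays and 2031, 1986 and 2035 on the LPS arrays (-2.82 ± 0.10, adjusted p = 7.6e-10). St3gal5, which adds it in alpha-2,3 linkage to make the ganglioside GM3, stood at 2316 and 2286 on the PBS arrays and 6739, 6643 and 6753 on the LPS arrays (1.57 ± 0.13, adjusted p = 6.4e-07). Each LPS array of St6gal1 lay below, and each of St3gal5 above, both PBS arrays. The other alpha-2,3 enzymes St3gal1 (1.34 ± 0.14), St3gal4 (1.18 ± 0.11) and St3gal6 (1.18 ± 0.09) rose, St3gal2 did not pass (0.25 ± 0.12, adjusted p = 0.1), and St3gal3 fell (-1.05 ± 0.12). St6galnac2 (-2.61 ± 0.09) and the polysialyltransferase St8sia4 (-2.22 ± 0.18) fell. Fut7, the fucosyltransferase of selectin ligands, rose (0.76 ± 0.09). St6gal1 is abundant in B cells, whose marker sums are given above, and their part in its fall was not tested.

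Secreted and vascular proteins were called in both directions, beside 25.8% higher and 30.3% lower of all genes. Shares were 28% and 44% for coagulation and fibrinolysis, 37.5% and 28.1% for matrix proteases and inhibitors, and 31.1% and 37.8% for growth factor genes. Semaphorins, plexins and ephrins were at 20.7% and 44.8%, and serpins, at 11.8% and 11.8%, lay below both shares of all genes. Coagulation and fibrinolysis had 7 higher and 11 lower of 25. Beside F10, the urokinase receptor Plaur (1.69 ± 0.09) and the thrombin receptor F2rl3 (1.30 ± 0.10) rose, and F7, factor VII, was at least 2.55-fold higher. Vkorc1, which recycles vitamin K for clotting factors, fell (-2.01 ± 0.14), as did protein S (Pros1, -1.73 ± 0.12), the thrombin receptor F2r (-1.52 ± 0.11) and von Willebrand factor (Vwf, -1.75 ± 0.09). Matrix proteases and inhibitors had 12 and 9 of 32, with Timp1 higher (1.26 ± 0.14) and Timp2 lower (-1.29 ± 0.11). Serpins had 2 and 2 of 17, Serpina3n (0.99 ± 0.13) against Serpinb6a (-2.43 ± 0.11) and Serpinf1 (-0.40 ± 0.10). The other higher call, Serpinb3a, stood at 154 and 150.3 on the PBS arrays and 162, 175 and 171 on the LPS arrays, at or close to background, and no fold is given. Growth factor genes had 14 and 17 of 45. Igfbp6 (2.87 ± 0.14), the cytokine receptor chain Csf2rb2 (1.82 ± 0.12) and oncostatin M (Osm, 1.13 ± 0.13) rose, and the apoptotic cell receptor Mertk (-2.42 ± 0.10), its ligand Gas6 (-2.18 ± 0.15) and the vessel genes Flt1 (-2.62 ± 0.11) and Igfbp7 (-3.38 ± 0.24) fell. Semaphorins, plexins and ephrins had 6 and 13 of 29, with Sema6b (2.05 ± 0.11) and Sema4d (0.89 ± 0.10) higher and Nrp1 (-2.35 ± 0.11), Sema6d (-2.32 ± 0.18) and Robo4 (-2.11 ± 0.16) lower. Endothelial and stromal markers summed to 19430.0 to 21341.0 on the PBS arrays and 5015.0 to 5136.0 on the LPS arrays, and their part in the falls of vessel genes was not tested. The macrophage marker sum given above was lower as well, and its part in the falls of Mertk, Gas6 and other genes here was not tested.

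Hypoxia response genes had 5 higher (20%) and 6 lower (24%) of 25, both below the shares of all genes. Egln2 (1.23 ± 0.14), Arnt (1.11 ± 0.11) and Vegfa (1.05 ± 0.10) rose, the prolyl hydroxylase subunit P4ha1 (-2.05 ± 0.16) and Ndrg1 (-1.23 ± 0.12) fell, and Hif1a itself did not pass (0.30 ± 0.27, adjusted p = 0.38). Ion channels had 14 higher (20.9%) and 16 lower (23.9%) of 67, again below the shares of all genes. The lysosomal chloride carrier Clcn7 (0.88 ± 0.10) rose, Kcnab1 was at least 2.06-fold higher, and the proton channel Hvcn1 (-1.45 ± 0.09), which serves the oxidative burst, fell with the potassium channels Kcnj16 (-1.63 ± 0.11) and Kcnk5 (-1.51 ± 0.11).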

How the data were processed

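Gene expression of MACS-sorted Gr1+ splenic cells was measured on 8 Illumina bead arrays, grouped by their titles (PBS numbered 1 and 3, LPS 1 to 3, LPS with HY209 1 to 3). The description of PBS 3 numbers it 2, and the title was used. The authors deposited a linear intensity per probe, quantile normalized between arrays (the columns' quantiles agree to within 0.0616%) and not background-subtracted, as their lowest value shows. The submitters' processing notes name GenomeStudio 2011.1 and R 2.15.0. A second table was not used here, since its 16 columns match no title. From the labels, 550 ng of RNA went into each amplification.

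Background was corrected with normexp (offset 50), then quantile normalization and log2 followed (limma 3.58.1, R 4.3.3). The mode of the intensities was 149, and probes above 169, the upper 5% bound of background, on at least 2 arrays were kept (14661). Of 25697 probes, 23978 carried 1 symbol, 0 several and 1719 none in the platform annotation, and 23962 were checked against RefSeq with 0 changed. The probe of highest mean stood for each gene.

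Group means were estimated from all 8 arrays (lmFit, eBayes, two-sided, 5 residual and 6.58 prior degrees of freedom), with a threshold of 0.05 after Benjamini-Hochberg adjustment. On simulated data for this comparison (10169 genes), log2 changes of 0.5, 1 and 2 were recovered for 41.8%, 95.5% and 100% of changed genes, and 0.11% of unchanged genes were called. These percentages depend on how many genes were set to change, and their dependence on that number was not tested. They are therefore not error rates of the calls given above. Where a whole group lay below background, a lower bound of the fold against the threshold is given, in place of the fitted change.

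The members and lists were chosen with earlier results of these data known, so list counts are descriptions without a test. Fcho1, listed with the Fc receptors in error, was taken out, and 1 list is not reported here. Named genes are the 20 largest rises and falls with non-overlapping arrays outside a list of genes set aside, up to 4 per list and direction (all where 5 or fewer passed), the 10 brightest in each direction, up to 8 measured in a single group, 8 with opposite probes and the 10 brightest with bounded changes. Other members (such as Csnk1d, Clock, Cd33, Trem1, St3gal3, St3gal6, Nampt, Gas6, Tgfb1, Myc and Hif1a) were chosen after their values were seen. Alternatives were no background correction, scaling to the 75th percentile, an offset of 16, no or a stricter filter on dim probes, the 5 arrays alone, a replicate block, the mean of a gene's probes, and each array left out.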

Additional observations from a re-analysis of the deposited data

How the results depend on the processing

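Across the alternatives the 4 counts of changed genes stayed within 1.5 times their values, and no call of the comparison changed direction except 6 when the probes of a gene were averaged. Leaving out an array gave 2047 to 2563 genes higher and 2502 to 2908 lower, with 639 to 693 and 822 to 861 at least 2-fold. Without background correction 543 and 634 genes changed at least 2-fold, and with an offset of 16 it was 758 and 1027. Scaling to the 75th percentile gave the same counts, an outcome fixed in advance because the deposited values were already quantile normalized. The residuals of same-numbered PBS and LPS arrays correlated by 0.04 and -0.03 across genes. Those of LPS and HY209 arrays correlated by 0.05, 0.30 and 0.28, and those of PBS and HY209 arrays by 0.10 and -0.19. The residuals of the 2 PBS arrays mirror each other, so these values cannot show whether the numbers in the titles pair the compared arrays. A replicate block gave 2726 higher and 3101 lower, with 649 and 822 at least 2-fold. Of 473 called genes among those the naming rule selects, 27 lost the call under at least 1 alternative, 24 of them when an array was left out. Mre11a turned from 0.34 to -0.0 (adjusted p = 0.97) with the mean of its probes, since these were called in opposite directions. The medians of 14 of 59 lists changed sign under some alternative, all close to 0 except that of nuclear receptors, which was -0.44 with the stricter filter. Signal over background limits dim genes, and 12 genes that were not called have intervals that reach a 2-fold change.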

Other observations

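Genes known to be induced by glucocorticoids, were listed after values had been seen, so their count is a description. Of 12 tested members 8 rose and 3 fell (median log2 change 0.67), beside 25.8% and 30.3% of all genes. Fkbp5, a chaperone partner of the glucocorticoid receptor, stood at 724 and 811 on the PBS arrays and at 5635, 5491 and 5973 on the LPS arrays (3.01 ± 0.16, adjusted p = 1.9e-08). Every LPS array lay far above both PBS arrays. Klf9 and Per1, described with their families, had rises of 2.93 ± 0.13 and 2.19 ± 0.11. Dusp1 (0.45 ± 0.09) and Tsc22d3 (0.34 ± 0.11) rose less, Errfi1 (-0.97 ± 0.11), Sgk1 (-0.35 ± 0.12) and the macrophage marker Cd163 (-2.20 ± 0.16) fell, and Ddit4 did not pass the test (-0.21 ± 0.09, adjusted p = 0.068).

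Probes of the same gene did not always move together. Among 2579 genes with at least 2 probes, 64 had probes called in opposite directions, 885 had every probe called the same way and 1653 had a probe that was not called, while 53.8% of the 13753 probes tested were called. For Smad5, a transducer of BMP signals, the brightest probe (ILMN_1237371) fell by 1.13 on the log2 scale, with an SE of 0.12, and another (ILMN_3076864) rose by 0.99 ± 0.13. H13, with the second largest smaller change, had probes from -1.34 ± 0.13 to 0.87 ± 0.11. For Ate1, an arginyltransferase, the brighter probe (ILMN_1230730) was at -0.96 ± 0.09 and the dimmer (ILMN_3163403) at 0.84 ± 0.09. For Dlgap4 the probes were at 0.75 ± 0.10 and -1.03 ± 0.12. Uhrf2, Rgs3, Esd and Rbm3 were the next genes of this kind by the size of the smaller change. The transcripts that each probe reads were not examined, and a single direction for these genes holds only for the probe used.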
